A study of Mus musculus with 9 samples.

Results

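Hepatocytes, the main cells of the liver, take bile acids and other organic anions from the blood at their sinusoidal face and export them into bile at their canalicular face or back to the blood. The 10 genes described here encode carriers of that route and were taken as a list of gene symbols: Slc10a1, Slco1a1, Slco1b2 and Slc22a7 for uptake, Abcb11, Abcb4 and Abcc2 for canalicular export, and Abcc3, Abcc4 and Slc51b for export to the blood. For each, the probe set annotated to that gene alone with the highest mean was used, which gave 9 measured genes of 22180 in all, each with a single such probe set. The probe set of Slc51b, which encodes the beta subunit of an organic solute transporter, also carries the symbol Rasl12, so Slc51b has no value here.

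Livers came from C57BL/6 mice (written C56BL/6J in the strain entry), 5 weeks old at the start, which were fed a regular diet with vehicle, a high-fat diet with vehicle, or a high-fat diet with an oral extract of ginseng flower buds (GFB). The extract was given at 500 mg/kg once a day, treatment lasted 12 weeks, and livers were taken after an overnight fast. Each group had 3 arrays, and since no label ties an array to its own mouse, a p-value here measures only how far these samples spread, which may be technical. The deposited values are log2 expression, on which a difference of 1 is a doubling. Differences are given ± standard error, and a gene was called changed when limma's p-value, adjusted over all genes tested, was under 0.05.

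In outline, as background, Slc10a1 is the sodium-dependent carrier of conjugated bile acids (NTCP), and Slco1a1 and Slco1b2 are sodium-independent organic anion carriers. Abcb11 is the bile salt export pump (BSEP), Abcb4 the phosphatidylcholine floppase that protects bile ducts from bile salts, and Abcc2 exports conjugates such as bilirubin glucuronide. Abcc3 and Abcc4 are basolateral pumps known to rise in cholestasis. The bile acid receptor FXR, encoded by Nr1h4, binds inverted repeats of the hormone receptor half-site AGGTCA spaced by 1 base and activates Abcb11.

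RefSeq promoter windows of assembly GRCm38.p6 were used for 8 of the 10 genes, all but Abcc3 and Slc22a7, and the 250 bases before each start were searched on both strands. The inverted repeat searched, the half-site AGGNCA, 1 base of any kind and then TGNCCT, was present in 28 of 32851 such windows (0.0852%), among them those of Abcb11 and Slco1b2. These are shown, on the strand of the gene, because they let the canalicular pump and an uptake carrier be compared at the same kind of element. The capitals mark the match, which starts 63 bases before the start of Abcb11 (minus strand, chr2:69342617-69342866) and 88 bases before that of Slco1b2 (plus strand, chr6:141629268-141629517).
Abcb11: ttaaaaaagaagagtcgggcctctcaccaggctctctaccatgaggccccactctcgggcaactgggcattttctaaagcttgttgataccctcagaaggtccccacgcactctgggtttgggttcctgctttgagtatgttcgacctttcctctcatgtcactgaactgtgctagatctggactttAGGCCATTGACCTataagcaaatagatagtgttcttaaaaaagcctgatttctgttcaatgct
Slco1b2: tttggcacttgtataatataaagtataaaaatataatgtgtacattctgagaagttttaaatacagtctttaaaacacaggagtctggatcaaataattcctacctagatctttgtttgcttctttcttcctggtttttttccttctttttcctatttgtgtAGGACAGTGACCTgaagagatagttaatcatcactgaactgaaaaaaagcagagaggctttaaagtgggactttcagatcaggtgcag
A match describes letters and is no evidence of binding, and the letters of the motif were chosen with the Abcb11 window in view. Each matched stretch also contains the half-site AGGTCA read on the other strand, which 14.0% of all windows hold. The direct repeat, AGGNCA followed after 1 base by AGGNCA and found in 0.338% of windows, was in no window of the 8 genes.

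On the high-fat diet, Slc22a7 and Abcc3 were higher than on the regular diet and were the only measured transporters of the list to pass, 2 of 9 against 1.34% of all genes tested (0.821% counting only higher genes). Of the 9 genes, 6 were higher and 3 lower, with a median difference of 0.16 against 0.00 over all genes. The groups did not overlap for 4 of the 9 genes, against 15.8% of all genes, and the same 4 had an unadjusted p under 0.05, against 13.3%. Shares over all genes include many dim genes, while most of these transporters are bright. All but Slc22a7 (72.6%) and Abcc4 (49.7%) had a higher mean than at least 97.8% of all genes. Where only genes above the median gene mean were tested, a larger share was called in every comparison made here.

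Slc22a7 encodes an organic anion transporter (OAT2) of the sinusoidal membrane. Its log2 values were 5.68, 5.02 and 3.88 on the regular diet, 7.48, 6.51 and 7.10 on the high-fat diet, and 6.58, 6.62 and 7.01 with extract. Every high-fat-fed liver lay above every regular-diet liver, and the regular-diet livers varied most among themselves. Slc22a7 rose by 2.17 ± 0.41 (4.51-fold, adjusted p = 0.0394). Regular-diet replicate 3, at 3.88, lay below the median gene mean of 4.74, so the size is uncertain at its lower end. That mean serves here as a rough mark of background, since no detection calls were used. Without regular-diet replicate 1 the difference was 2.58 (adjusted p = 0.0174), and the call was lost when any 1 of the other 8 arrays was left out (adjusted p from 0.0621 to 0.129). It was also lost when only the 6 arrays compared were fitted (adjusted p = 0.148).

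Abcc3 encodes MRP3, which exports bile acids and glucuronides into the blood. It stood at 9.20, 9.40 and 9.47 on the regular diet, 9.91, 10.31 and 10.11 on the high-fat diet, and 9.99, 9.87 and 10.11 with extract. Every high-fat-fed liver, with or without extract, lay above every regular-diet liver. Abcc3 rose by 0.75 ± 0.12 (1.69-fold, adjusted p = 0.0213). The call was lost without regular-diet replicate 2 (adjusted p = 0.0765) or 3 (0.0526), without high-fat diet replicate 2 (0.0693) or 3 (0.0819), and with the fit restricted to those 6 arrays (0.0959). Bulk tissue cannot tell fewer cells of a type from less RNA per cell, for this gene or the others.

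**Figure D1:**
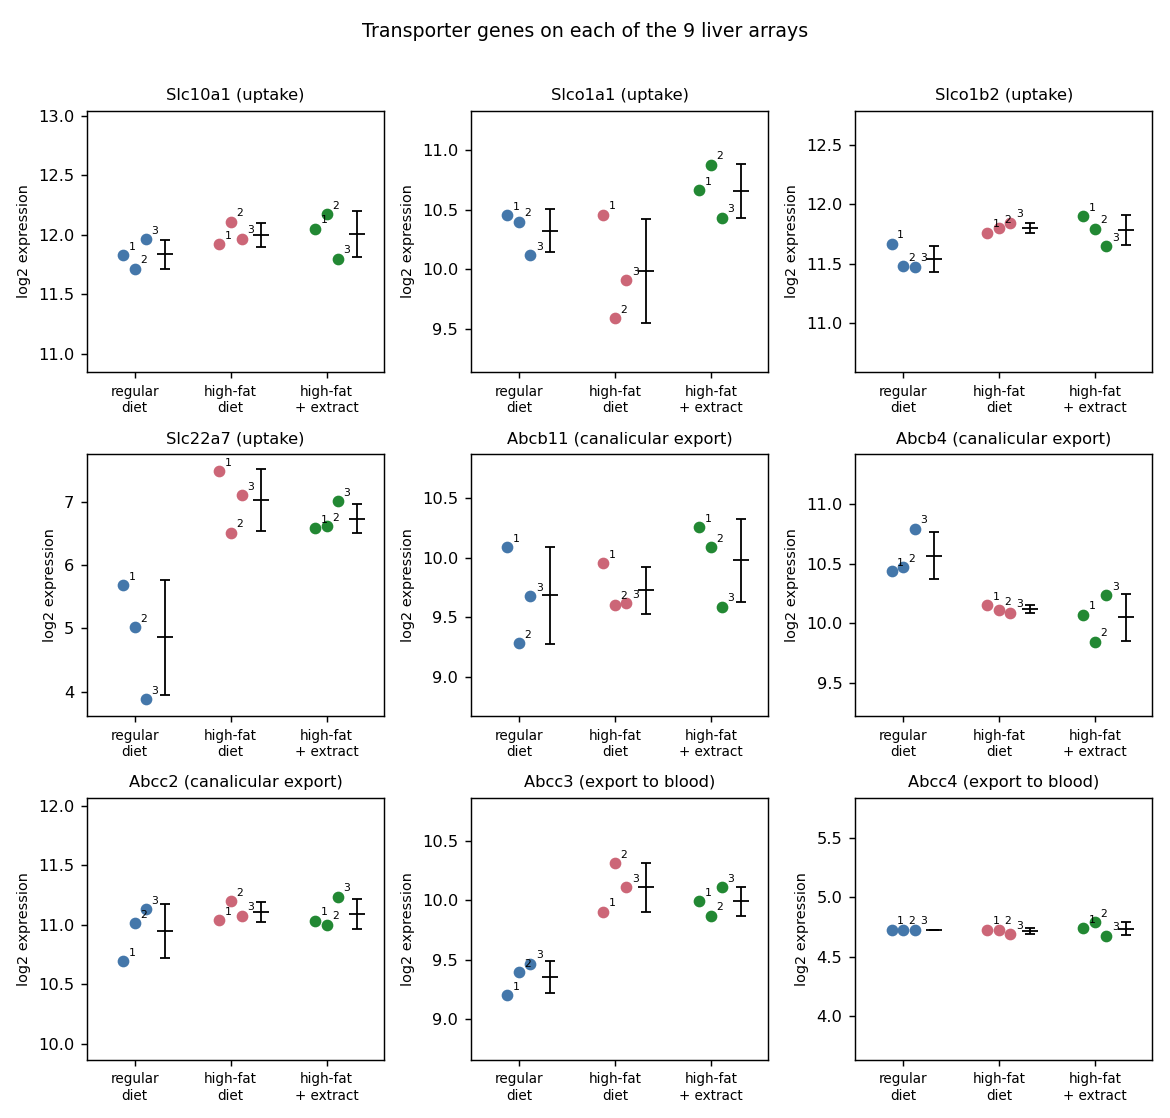
Log2 expression of the 9 measured transporter genes, 1 panel per gene, in the livers of the 3 groups. Numbered points are single arrays and black bars the mean ± SD (n = 3). Each vertical axis spans at least 2.2 log2 units and is wider for Slc22a7. Slc22a7 and Abcc3 are higher and Abcb4 is lower in all 6 high-fat-fed livers than in all 3 regular-diet livers.

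Abcb4 was the 1 canalicular gene whose groups did not overlap. Its values were 10.44, 10.47 and 10.79 on the regular diet, 10.15, 10.11 and 10.09 on the high-fat diet, and 10.07, 9.84 and 10.24 with extract. All 6 high-fat-fed livers lay below all 3 regular-diet livers. The diet difference of -0.45 ± 0.12 did not pass (adjusted p = 0.130, with a 95% interval from -0.72 to -0.18 before any adjustment for the number of genes).

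Abcb11, the main bile salt pump, did not separate the groups. Its values were 10.09, 9.28 and 9.68 on the regular diet, 9.96, 9.61 and 9.62 on the high-fat diet, and 10.26, 10.09 and 9.59 with extract. All 3 groups overlapped, and the diet difference was 0.04 ± 0.22 (adjusted p = 0.959, 95% interval -0.46 to 0.55). Abcc2 (MRP2) was more uniform, at 10.69, 11.02 and 11.13 on the regular diet, 11.04 to 11.20 on the high-fat diet and 11.00 to 11.24 with extract, with a diet difference of 0.16 ± 0.12 (adjusted p = 0.630). The 95% intervals reach 0.55 for Abcb11 and 0.43 for Abcc2 at the upper end, so the arrays leave room for rises of that size.

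Among the uptake carriers, Slco1b2 (OATP1B2), the mouse counterpart of the human hepatic OATP1B carriers, came nearest to a call after Slc22a7. It stood at 11.67, 11.48 and 11.48 on the regular diet, 11.76, 11.80 and 11.85 on the high-fat diet, and 11.90, 11.80 and 11.65 with extract. The high-fat diet livers all lay above the regular-diet livers, while extract replicate 3 lay just under regular-diet replicate 1. The diet difference of 0.26 ± 0.09 did not pass (adjusted p = 0.225). For Slc10a1 the values were 11.83, 11.71 and 11.96, then 11.92, 12.11 and 11.96, then 12.05, 12.17 and 11.80 in the same order of groups, so that all groups overlapped. Its diet difference was 0.16 ± 0.11 (adjusted p = 0.589, 95% interval -0.08 to 0.41).

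Abcc4 encodes MRP4, a further pump toward the blood, and its probe set gave almost no variation. The value was 4.73 in all 3 regular-diet livers and identical to every deposited digit in 5 of the 9 livers, and all 9 lay between 4.68 and 4.79. That is close to the median gene mean of 4.74, used here as a rough mark of background. By that mark neither a level nor a difference of Abcc4 is told from background here. Values repeated on 5 or more arrays occurred in 7.19% of all genes tested.

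**Figure D2:**
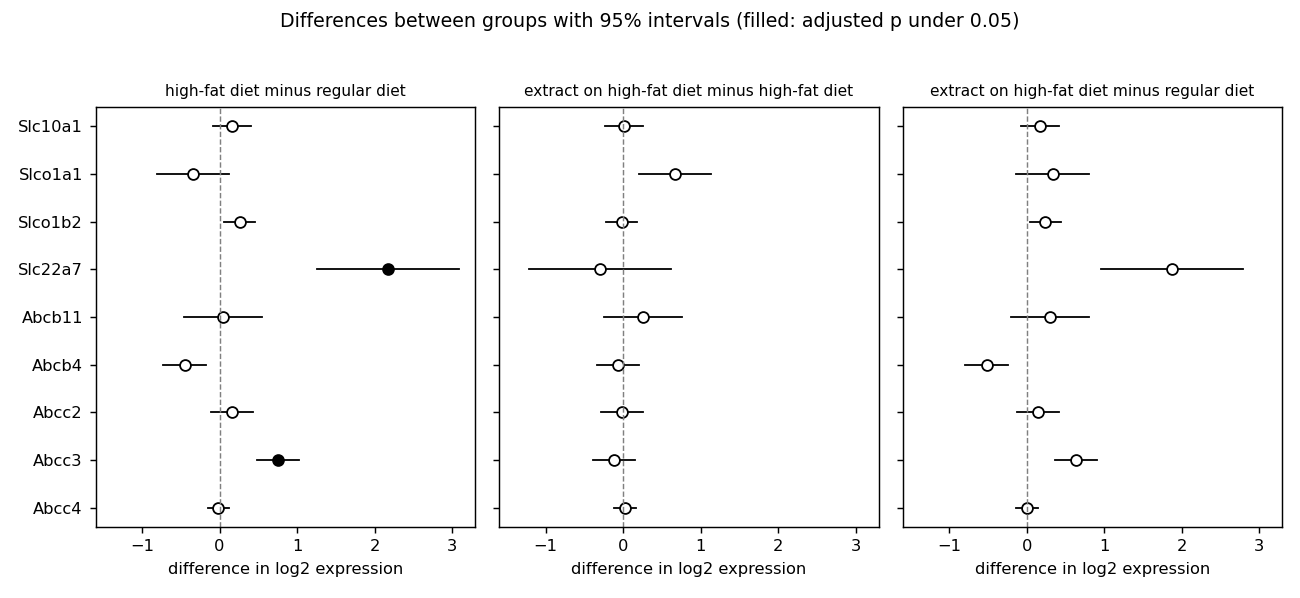
Differences in log2 expression with 95% intervals for the 9 measured transporter genes in the 3 comparisons between groups. Filled points passed at an adjusted p under 0.05, which were Slc22a7 and Abcc3 on the high-fat diet, and open points did not. The intervals are not adjusted for the number of genes.

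Livers with extract were set against livers on the same diet with vehicle, which asks what the extract adds. None of the 9 genes passed in limma, against 0.00451% of all genes tested (1 gene). The groups overlapped for all 9, against 9.69% of all genes without overlap, and the median difference was -0.01. At an unadjusted p under 0.05 there was 1 gene, Slco1a1, against 5.98% of all genes.

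Slco1a1 encodes OATP1A1, a carrier of bile acids and steroid conjugates known to be male-predominant in mouse liver. It stood at 10.45, 10.40 and 10.12 on the regular diet, 10.46, 9.59 and 9.91 on the high-fat diet, and 10.66, 10.88 and 10.43 with extract. High-fat diet replicate 1 lay among the livers of the other groups, while high-fat diet replicates 2 and 3 were the lowest of all 9. The difference of extract from high-fat diet was 0.67 ± 0.21 (adjusted p = 0.718, 95% interval 0.21 to 1.14) and that of high-fat from regular diet was -0.34 ± 0.21 (adjusted p = 0.542). Both rest on the same high-fat diet arrays. Without high-fat diet replicate 1 the extract difference was 0.91 (adjusted p = 0.326), and without replicate 2 it was 0.47 (adjusted p = 0.856).

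The spread of Slco1a1 on the high-fat diet ran beside that of other genes that differ by sex in mouse liver. The mean level of 13 other male-biased genes was 9.53, 8.14 and 8.90 in high-fat diet replicates 1, 2 and 3. It was 8.51, 8.95 and 8.52 on the regular diet and 8.65, 8.89 and 9.08 with extract. High-fat diet replicate 1 was thus the highest and replicate 2 the lowest of the 9 for these genes. The 3 livers of that group stood in the same order for Slco1a1, Slc22a7 and Abcb11. They stood in the reverse order for Slc10a1, Abcc2 and Abcc3. The other groups did not share the order of Slco1a1. Regular-diet replicate 1 was the lowest of its group for the male-biased genes and the highest for Slco1a1. Extract replicate 3 was the highest of its group for the male-biased genes and the lowest for Slco1a1. For 11 measured female-biased genes, high-fat diet replicate 1 was instead the lowest of its group, at means of 4.10, 5.02 and 4.80, against 4.07 to 4.13 on the regular diet and 4.43 to 4.71 with extract. Of these 11 genes, 7 lay below the median gene mean of 4.74 in every liver, and the widest spread was that of Cyp2b9, at 6.52, 11.37 and 10.41 in high-fat diet replicates 1, 2 and 3. The labels used here do not give the sex of the mice, and the part of this spread in the Slco1a1 values was not tested.

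Slco1a4, a female-predominant relative of Slco1a1 that lies between it and Slco1b2 on chromosome 6, stood at 8.16, 8.24 and 8.89 on the regular diet, 6.04, 8.85 and 7.80 on the high-fat diet, and 8.56, 8.18 and 7.88 with extract. High-fat diet replicate 1 had the lowest value of the 9 and replicate 2 was among the highest. No difference passed (adjusted p = 0.581 for the diet and 0.903 for extract against high-fat diet). Slco1a genes are alike in sequence, and how far their probes share signal was not tested.

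Of the 13 male-biased genes, 6 were higher and 7 lower with extract than on the high-fat diet alone, and none passed in limma, with 1 at an unadjusted p under 0.05. On the diet 9 of the 13 were higher, and Cyp2u1, a cytochrome P450 gene, rose (0.90 ± 0.16, adjusted p = 0.0336). Of the 11 female-biased genes, 6 were higher with extract, and none passed for extract or for the diet. Cyp2b9, another cytochrome P450 gene, rose when both high-fat-fed groups were set against the regular diet (4.96 ± 0.95, adjusted p = 0.0402). Its regular-diet values of 5.00, 3.47 and 3.56 lay near or below the median gene mean, so the size of that difference is uncertain.

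For the 3 genes whose 6 high-fat-fed livers all lay on 1 side of the regular-diet livers, extract and high-fat diet livers overlapped. The extract difference was -0.30 ± 0.41 for Slc22a7 (95% interval -1.21 to 0.62), -0.12 ± 0.12 for Abcc3 (-0.39 to 0.15) and -0.07 ± 0.12 for Abcb4 (-0.34 to 0.21). The interval of Slc22a7 is wide enough to hold a fall of more than 2-fold. The remaining differences were 0.25 ± 0.22 for Abcb11, 0.02 ± 0.06 for Abcc4, 0.01 ± 0.11 for Slc10a1, -0.01 ± 0.12 for Abcc2 and -0.02 ± 0.09 for Slco1b2.

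**Figure D3:**
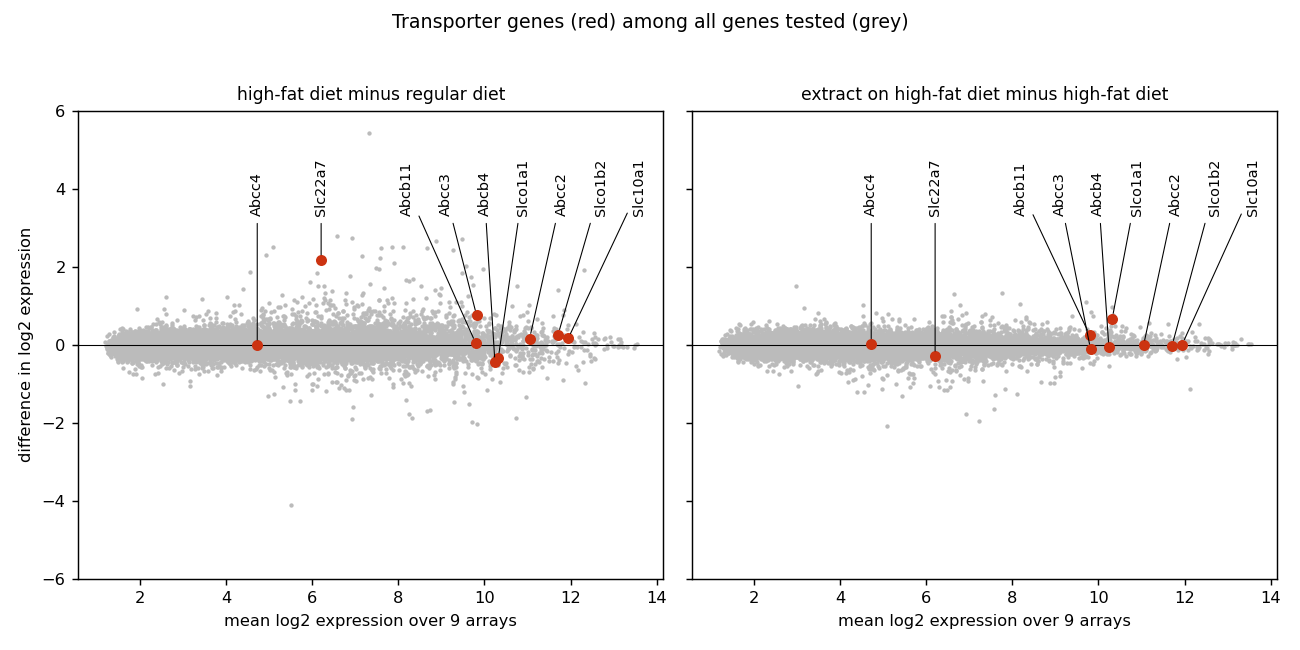
Difference in log2 expression against the mean over the 9 arrays for all 22180 genes tested (grey) and the 9 transporter genes (red), for high-fat versus regular diet (left) and extract versus vehicle on the high-fat diet (right). Slc22a7 stands at 2.17 on the left, and every transporter lies between -0.30 and 0.67 on the right.

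Extract-treated livers were also set against the regular diet, with which they share no array, though this comparison shares its regular-diet arrays with the diet comparison. Of the 9 genes 0 passed in limma, against 0.442% of all genes, and 4 had an unadjusted p under 0.05, against 12.1%. Slc22a7 was higher by 1.88 ± 0.41 (adjusted p = 0.109) and Abcc3 by 0.64 ± 0.12 (adjusted p = 0.0687), without overlap. Abcc3 passed among the genes above the median brightness (adjusted p = 0.0307), and Slc22a7 passed without regular-diet replicate 1 (2.29, adjusted p = 0.0318). Abcb4 was lower by 0.52 on the log2 scale without overlap (-0.52 ± 0.12, adjusted p = 0.134), and Slco1b2 was higher by 0.24 ± 0.09 (adjusted p = 0.318). The groups did not overlap for 3 of the 9 genes, against 14.6% of all genes.

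With the 6 high-fat-fed livers pooled, Slc22a7 (2.02 ± 0.35, adjusted p = 0.0267) and Abcc3 (0.69 ± 0.10, adjusted p = 0.0153) rose, 2 of 9 against 1.68% of all genes (0.933% counting only higher genes). Neither passed without regular-diet replicate 2 (adjusted p = 0.0978 and 0.0680) or replicate 3 (0.0592 and 0.0527). Slc22a7 also lost the call without high-fat diet replicate 1 or 3 or any 1 extract array (adjusted p from 0.0593 to 0.0693). Abcb4 stood just outside the threshold (-0.48 ± 0.11, adjusted p = 0.0590), and it passed under 5 of the 19 alternatives, among them the genes above the median brightness (adjusted p = 0.0271). Slc22a7, Abcc3 and Abcb4 were the genes for which these 6 livers did not overlap the 3 regular-diet livers, against 7.90% of all genes.

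Across the 9 arrays, the uptake carrier Slco1b2 and the floppase Abcb4 ran most opposite of the 36 pairs of transporters (Pearson r = -0.86), and Slco1b2 and Slc22a7 ran most alike (r = 0.79). With each group's mean removed these became -0.56 and 0.24. Within groups the most extreme pair was Slco1a1 and Abcc3 (r = -0.94). These values describe 9 arrays in 3 groups and carry no test. The genes whose pattern over the 9 arrays was nearest to Slc22a7 were C4b (r = 0.982), a complement gene, Cebpe (0.980) and the carboxylesterase gene Ces3a (0.975), and those nearest to Slco1a1 were Lcmt2 (0.940), Larp1 (0.935) and Zfp688 (0.926). They are the highest of 10546 genes searched and are given as a description. Lcmt2 had the identical value, 5.70, in every regular-diet liver, high-fat diet replicate 1 and extract replicate 3. Its r therefore rests on few distinct values. C4b and Ces3a themselves passed for the diet (adjusted p = 0.0394 and 0.0259).

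Of 19 further measured transporters of liver cells, Slc22a23, an organic ion transporter family member, rose on the high-fat diet (0.49 ± 0.08, adjusted p = 0.0292) and the 18 others did not pass. The median was 0.13, with 12 higher and 7 lower. The 1 call of 19 stands against 1.34% of all genes tested. At an unadjusted p under 0.05 there were 8 of the 19 for the diet, against 13.3% of all genes. With both high-fat-fed groups together 3 of the 19 rose and 1 fell, against 1.68% of all genes called in either direction. Slc22a23 (0.43 ± 0.07), the multidrug and toxin extruder gene Slc47a1 (0.43 ± 0.08, adjusted p = 0.0440) and Slc17a3 (0.72 ± 0.14, adjusted p = 0.0379) were higher, and the carnitine carrier gene Slc22a5 was lower (-0.56 ± 0.12, adjusted p = 0.0481). For Slc22a5 the livers stood at 8.08, 8.24 and 8.34 on the regular diet, 7.63, 7.74 and 7.52 on the high-fat diet, and 7.51, 7.54 and 7.98 with extract. Both high-fat-fed groups thus lay wholly below the regular-diet livers. None of the 19 passed for extract against high-fat diet, where the smallest adjusted p was 0.325 for the aromatic amino acid carrier gene Slc16a10 (0.54 ± 0.11). Slc51a, which encodes the partner subunit of the Slc51b product, had group means from 3.56 to 3.66, below the median gene mean. Abcb1a and Abcb1b lie beside Abcb4 on chromosome 5, and neither passed for the diet (0.50 ± 0.35, adjusted p = 0.602, and -0.12 ± 0.17, adjusted p = 0.827).

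Of 24 measured genes of bile acid synthesis and its regulators, none passed in limma in any of the 4 comparisons, and the diet median was 0.04 with 14 higher. At an unadjusted p under 0.05 there were 8 of 24 for the diet, against 13.3% of all genes, and 4 of 24 for extract against high-fat diet, against 5.98%. The smallest p-values belonged to Cyp27a1, a sterol hydroxylase of the acidic pathway (0.54 ± 0.11 for extract against regular diet, adjusted p = 0.0969), and Klb, the FGF15 co-receptor gene (-0.68 ± 0.18 for the diet, adjusted p = 0.125). Nr1h4 itself differed by 0.34 ± 0.10 on the diet (adjusted p = 0.172) and Nr0b2, a target of FXR, by 0.23 ± 0.31 (adjusted p = 0.814). Of 8 measured genes of the canalicular scaffold, such as Rab11a and Stk11, none passed. Stk11, which encodes a kinase of cell polarity, had -0.21 ± 0.07 on the diet (adjusted p = 0.211), and Rab11a, a GTPase of vesicle delivery to that membrane, had -0.20 ± 0.11 for both groups together (adjusted p = 0.465).

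**Figure D4:**
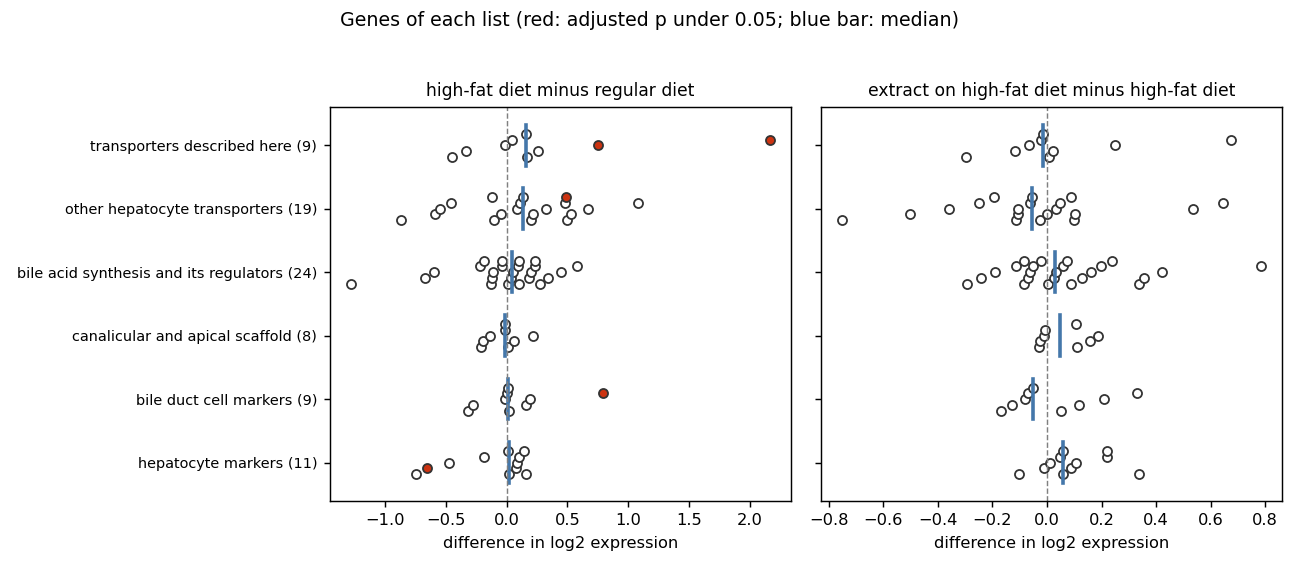
Differences in log2 expression for each gene of the 9 transporters and of the lists compared with them, for high-fat versus regular diet (left) and extract versus vehicle on the high-fat diet (right). Each point is a gene, red where it passed at an adjusted p under 0.05, the blue bar is the median of the list, the number of genes is in brackets, and the horizontal scales differ. Red points appear on the left only.

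All 11 measured hepatocyte markers lay above the median gene mean in every array. Their mean level was 11.84 to 11.91 on the regular diet, 11.69 to 11.81 on the high-fat diet and 11.80 to 11.88 with extract, so that it was lower in all 3 high-fat diet livers than in the regular-diet livers. Of the 11, 7 were higher and 4 lower on the diet (median 0.01), and Cps1, a urea cycle gene, fell on the diet (-0.66 ± 0.10, adjusted p = 0.0224). The other lower genes, which did not pass, were Ass1 (-0.75 ± 0.19), Tat (-0.47 ± 0.18) and Hnf4a (-0.19 ± 0.08). The lower mean level thus rests on these 4 genes. Of them, Ass1 stood at 5.05, 5.03 and 5.51 in the high-fat diet livers. These values lay not far above the median gene mean of 4.74, so the size of the Ass1 difference is uncertain. Of 9 measured bile duct markers, which could bring their own transporters to a liver sample, 4 were below 4.74 in every array, which were Krt19, Epcam, Cftr and Muc1. Krt7 (4.97) and Slc4a2 (6.02) each repeated that value to every deposited digit on most of the arrays. The list's mean level ran from 4.84 to 4.86 on the regular diet, 4.89 to 4.93 on the high-fat diet and 4.91 to 4.96 with extract. Slc10a2, described below, is among the 9. Without its values the list's group mean would not be higher on the high-fat diet, with or without extract. On the diet 5 of the 9 were higher and 4 lower, with a median of 0.01 and a range from -0.32 (Aqp1, adjusted p = 0.130) to 0.79. The 1 marker that passed was Slc10a2, the apical sodium-dependent bile acid transporter gene, which rose on the high-fat diet (0.79 ± 0.13, adjusted p = 0.0224) and with extract against the regular diet (0.91 ± 0.13, adjusted p = 0.0230). Its livers stood at 5.17, 4.78 and 5.08 on the regular diet, 5.80, 5.93 and 5.67 on the high-fat diet and 6.08, 5.92 and 5.75 with extract. The regular-diet values lay just above the median gene mean of 4.74, so the size of these differences is uncertain. The 8 Kupffer cell and macrophage markers had mean levels from 6.37 to 7.03 on the regular diet, 6.60 to 6.91 on the high-fat diet and 6.43 to 6.96 with extract, and none passed. The part of these cells in the transporter values was not tested.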

How the data were processed

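Liver RNA of 9 mouse samples in 3 groups of 3 was measured on whole-transcript arrays. The deposited log2 values were made by the authors with RMA in oligo, an R package, as the submitters' processing notes list without versions. RMA corrects background and quantile-normalizes, so a shift shared by most genes would be removed. No detection calls were used, and the genome build was not given in the sources used here. Of 41345 probe sets, 23521 had 1 gene symbol, and the brightest stood for each of 22180 genes.

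The tests used limma 3.58.1 (R 4.3.3), with a mean per group over all 9 arrays (6 residual and 3.28 prior degrees of freedom), two-sided, with Benjamini-Hochberg adjustment over all genes. The number of arrays limits the precision. The comparisons were high-fat diet against regular diet, extract on high-fat diet against high-fat diet, extract on high-fat diet against regular diet, and both high-fat-fed groups against regular diet. The members and the lists (further transporters, bile acid synthesis, canalicular scaffold, sex-biased genes, and markers of hepatocytes, bile ducts and macrophages) were chosen with earlier results of these data known. The genes named were all members, list genes that passed or else the 2 with the smallest p-values, and the 3 most alike to each of the 2 most variable members. Aqp1, Slco1a4, Slc16a10, Slc51a, Abcb1a, Abcb1b, Nr1h4, Nr0b2, Ass1, Tat, Hnf4a and the bile duct markers were named after their values were seen. On simulated data with the design of the diet comparison, 44.2% of log2 changes of 0.5, 90.5% of 1 and 99.1% of 2 were recovered. Of 811 calls, 29 were false. The simulation planted 328, 336 and 336 changed genes at these sizes and made more calls than the 297 of the data. Its recovery may therefore be too high for these data. It also need not hold for a gene like Slc22a7, whose spread within groups was larger than that of 99.7% of genes. Alternatives covered moderation, dim genes, probe sets, normalization, weights, a replicate block, thresholds, the arrays fitted and leaving out each array.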

Additional observations from a re-analysis of the deposited data

How the results depend on the processing

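The diet comparison called 2 of the 9 transporters as reported, 1 (Abcc3) with the replicate block, where Slc22a7 had an adjusted p of 0.0572, 0 with only the groups compared, and 0 to 2 without any 1 array. With both high-fat-fed groups together the count was 2 as reported and 0 to 2 without any 1 array. It was 3, with Abcb4 added, under trend and robust moderation (adjusted p = 0.0393), among the brighter genes (0.0271), with quantile normalization once more (0.0398), with arrays shifted to the same median (0.0483) and at an adjusted p under 0.10. Extract against regular diet called 0 as reported, 1 with trend and robust moderation, among the brighter genes, with quantile normalization once more and at an adjusted p under 0.10, and 0 to 1 without any 1 array. Extract against high-fat diet called 0 under all 19 alternatives. Deviations of same-numbered arrays of different groups correlated from -0.05 to 0.17, with 1 of 9 over 0.1. Differently numbered arrays were not set beside them, so this does not settle whether the replicate numbers pair the arrays. The block took the count of all genes called in the diet comparison from 297 to 201 and with both groups together from 372 to 231. For both groups together, fitting only the groups compared is the reported fit. The counts over all genes were 297, 1, 98 and 372 for diet, extract against high-fat diet, extract against regular diet and both groups together. They became 597, 4, 232 and 707 among the brighter genes and 611, 4, 216 and 760 at an adjusted p under 0.10. With a fold of at least 1.5, those for diet and both groups together became 171 and 164, and with only the groups compared the first 3 became 15, 0 and 34. Array weights gave 3 for extract against high-fat diet. Without any 1 array they ran from 58 to 452, 0 to 3, 2 to 267 and 63 to 553.

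Changes of sign occurred only in log2 differences that did not pass. For extract against high-fat diet, Slc10a1 was -0.0193 with quantile normalization once more and -0.0737 to 0.113 without any 1 array. Without any 1 array, Slco1b2 ran from -0.0799 to 0.0459, Abcb4 from -0.160 to 0.0369, Abcc2 from -0.0862 to 0.0342 and Abcc4 from -0.0060 to 0.0503. For extract against regular diet, Abcc4 was -0.0021 with quantile normalization once more, -0.0025 with arrays shifted to the same median, and -0.0196 to 0.0368 without any 1 array. Abcb11 ran from -0.157 to 0.247 for the diet and from -0.0315 to 0.373 for both groups together, where Slco1a1 ran from -0.122 to 0.0962 and Abcc4 from -0.0166 to 0.0116. The cause of these shifts was not tested. Signal near the median gene mean limits Abcc4 on every array and Slc22a7 on the regular diet.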

Other observations

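Values identical to every deposited digit on 5 or more of the 9 arrays, as seen for Abcc4, were found in 1594 of 22180 genes. They made up 1172 of the 11090 genes at or under the median gene mean (10.6%) and 422 of the 11090 above it (3.81%). Each of the other 8 measured genes of the list of 10 had 9 different values.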
